A study of Saccharomyces cerevisiae with 36 samples.

Results

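The galactose (GAL) pathway of the budding yeast Saccharomyces cerevisiae was followed through 7 genes out of the 6717 features measured, chosen by name: GAL1 (YBR020W), GAL2 (YLR081W), GAL3 (YDR009W), GAL4 (YPL248C), GAL7 (YBR018C), GAL10 (YBR019C) and GAL80 (YML051W). The 36 RNA-seq libraries came from 6 strains labelled wild, each grown in YPD (a rich glucose medium), in a synthetic lignocellulosic hydrolysate with toxins (SynH) and in that hydrolysate without toxins (SynH -HTs). Each combination has 2 biological replicates from different days. NCYC361 and K11 are labelled sensitive to SynH, Y7568, YPS128 and UWO.S05.22-7 resistant, and NCYC3290 of medium resistance. Cells were grown for 3 generations to an OD600 near 0.5. The labels describe no genetic change in these isolates.

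The GAL genes allow yeast to use galactose. Gal2 is the permease that brings the sugar in, and Gal1 (galactokinase), Gal7 (uridylyltransferase) and Gal10 (epimerase and mutarotase) convert it to glucose-1-phosphate. Gal4 is the transcription activator, Gal80 binds Gal4 and holds it inactive, and Gal3 is the galactose sensor that frees Gal4 from Gal80. Glucose represses the pathway, in part through the repressor Mig1, which binds upstream of GAL1, GAL3 and GAL4. No label records galactose in any of these media.

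The letters that Gal4 and Mig1 are known to bind are shown first, because GAL1, GAL10 and GAL2 have several Gal4 matches and the other 4 members have 1 each. Sequence and coordinates are from the RefSeq genome of the reference strain, assembly R64, and not from the 6 isolates, and the build used by the authors is not given in the sources used here. The Gal4 motif searched was CGG, 11 bases of any kind and CCG, which reads the same on both strands. In the 500 bases before the coding start it occurred in 179 of 6006 genes (2.98%), and at least 2 times in 7 genes (0.117%). GAL1 and GAL10 are divergent genes on chromosome II that share 3 matches, GAL2 had 4, of which the last 2 overlap, and GAL3, GAL4, GAL7 and GAL80 had 1 each. Capitals mark the CGG and CCG ends, with 3 flanking bases on each side, on the strand of the gene named.
GAL1 and GAL10, match 1, chrII:278568-278584, + strand: gtaCGGattagaagccgCCGagc
GAL1 and GAL10, match 2, chrII:278587-278603, + strand: gagCGGgcgacagccctCCGacg
GAL1 and GAL10, match 3, chrII:278605-278621, + strand: cgaCGGaagactctcctCCGtgc
GAL2, match 1, chrXII:289796-289812, + strand: cacCGGcggtctttcgtCCGtgc
GAL2, match 2, chrXII:289815-289831, + strand: gtgCGGagatatctgcgCCGttc
GAL2, match 3, chrXII:289879-289895, + strand: tatCGGggcggatcactCCGaac
GAL2, match 4, chrXII:289884-289900, + strand: gggCGGatcactccgaaCCGaga
GAL7, chrII:275703-275719, - strand: gctCGGacaactgttgaCCGtga
GAL3, chrIV:463146-463162, + strand: gttCGGtccactgtgtgCCGaac
GAL80, chrXIII:171422-171438, + strand: tacCGGcgcactctcgcCCGaac
GAL4, chrXVI:82810-82826, - strand: agaCGGtggcgcaggatCCGgtt
The match before GAL4 lies inside the coding sequence of the neighbouring gene YPL247C, while the others are intergenic.

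Mig1 binds a short GC-rich core, searched on both strands in 4 forms. The first form was CCGGGG, another form of the core was CTGGGG, a further form of the same length was GCGGGG, and the last form searched in the windows was GTGGGG. At least 1 match stood in the 500 bases before 1364 of 6006 genes (22.7%), so a match is common. GAL1 and GAL10 share 2 such matches, GAL3 and GAL4 have 2 each, GAL80 has 1, and GAL2 and GAL7 have none. The GAL80 match lies inside the coding sequence of the neighbour YML052W, and 1 of the 2 GAL4 matches lies inside that of YPL247C. Upstream stretches of GAL1, GAL3 and GAL80 follow, with the ends of the Gal4 motif and the whole Mig1 core in capitals: GAL3 rose with the toxins, and GAL1 and GAL80 did not pass that test.
GAL1, chrII:278561-278840, + strand: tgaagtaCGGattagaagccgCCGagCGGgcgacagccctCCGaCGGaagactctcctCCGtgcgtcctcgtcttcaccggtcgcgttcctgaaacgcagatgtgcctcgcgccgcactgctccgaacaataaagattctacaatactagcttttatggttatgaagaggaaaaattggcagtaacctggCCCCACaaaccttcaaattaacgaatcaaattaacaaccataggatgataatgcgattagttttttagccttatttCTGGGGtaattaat
GAL3, chrIV:463034-463233, + strand: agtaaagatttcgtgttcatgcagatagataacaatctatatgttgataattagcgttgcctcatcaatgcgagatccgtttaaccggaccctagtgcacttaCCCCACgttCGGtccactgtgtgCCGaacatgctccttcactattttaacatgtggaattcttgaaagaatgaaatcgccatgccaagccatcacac
GAL80, chrXIII:171344-171493, + strand: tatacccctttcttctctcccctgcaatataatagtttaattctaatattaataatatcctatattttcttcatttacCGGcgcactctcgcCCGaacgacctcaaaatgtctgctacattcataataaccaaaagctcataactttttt
In GAL3 a Mig1 core lies at 297 to 292 bases and the Gal4 match at 288 to 272 bases before the start, so the 2 elements are next to each other. For GAL4 the nearer Mig1 core lies at 89 to 84 bases before the start (cttCCCCAGatt). These are matches of letters and not measured binding.

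Levels are log2 RPKM, reads scaled to gene length and library size, with 1 read added by the authors before the logarithm. Libraries held 2203991 to 32832552 reads in coding genes, with the second highest at 8043386 and the maximum in replicate 2 of YPS128 in SynH. GAL transcripts were few: summed over 36 libraries there were 13468 reads of GAL80, 2357 of GAL4, 1329 of GAL3, 724 of GAL1, 129 of GAL10, 106 of GAL7 and 32 of GAL2. The median GAL3 library held 23 reads and the median GAL4 library 33.5, against 288 for GAL80. GAL1, GAL3, GAL4 and GAL80 reached the mean of 1 RPKM required for testing, and GAL2, GAL7 and GAL10 did not, so calls are given for 4 of 7 members. Library medians over the tested features were 2.76 to 4.30 in the replicate 2 libraries of SynH -HTs against 3.82 to 4.73 in replicate 1 and the GAL3 and GAL4 responses are given without the libraries of each number. In these bulk cultures a higher level per cell and a larger share of expressing cells cannot be told apart.

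Strand matters for these loci. In R64 the annotated antisense RNA YNCB0008W (chromosome II 276805 to 280645, + strand) overlaps 1548 bases of GAL10 (276253 to 278352, - strand) from the opposite strand and all 1587 bases of GAL1 (279021 to 280607, + strand) on the same strand. YNCP0002W (chromosome XVI 79562 to 82648, + strand) covers GAL4 (79711 to 82356, - strand) from the opposite strand. The library kit keeps strand, but the strand setting of the counting is not given. Among coding genes covered by an opposite gene, 17 of 19 pairs differed at least 5-fold in mean RPKM. That count cannot settle the setting, because counting without strand that leaves out shared reads would also make pairs differ. CPP2 and YJL077W-A, each covered to 100% and named after their values were seen, had means of 161 and 13.9 RPKM against 0.773 and 0.89 for the genes across from them. Reads of GAL1 and of YNCB0008W, which share a strand, cannot be told apart in this table. Each of the 7 members has 1 coding exon, and GAL2 (chromosome XII 290212 to 291936), GAL3 (chromosome IV 463434 to 464996), GAL7 (chromosome II 274427 to 275527) and GAL80 (chromosome XIII 171594 to 172901) complete the set.

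With the toxins, transcripts of the sensor GAL3 and of the activator GAL4 rose, while those of the inhibitor GAL80 and of the galactokinase GAL1 did not pass the test. Averaged over the 6 strains, the toxins went with a 3.69-fold higher GAL3 level and a 3.47-fold higher GAL4 level. Both changes were positive in 6 of 6 strains. The toxin response, SynH minus SynH -HTs, thus called 2 of the 4 tested members, both higher, where 29.6% of all 5927 tested features were called and 19.1% were called higher.

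GAL3 had log2 RPKM of -0.83 to 2.29 in the 12 SynH -HTs libraries, with a median of 0.05, and of 1.47 to 2.95 in the 12 SynH libraries, with a median of 2.34. In NCYC361 the GAL3 libraries read -0.83 and -0.60 in SynH -HTs and 1.47 and 2.36 in SynH. Those of K11 read 2.29 and 1.33, and then 2.31 and 2.22 with the toxins. K11 was the 1 strain whose GAL3 ranges overlapped, and it had the highest mean without the toxins. NCYC3290 went from 0.65 and -0.52 to 1.87 and 2.04, and Y7568 from 0.01 and -0.15 to 2.95 and 2.61. In YPS128 GAL3 went from -0.02 and 0.09 to 1.89 and 2.44, and in UWO.S05.22-7 from 1.66 and 1.19 to 2.64 and 2.87. The groups were therefore separate in 5 of 6 strains, as were at least 5 strains in 9.04% of all features.

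The GAL3 change was 1.88 ± 0.19 (SE) on the log2 scale with a limma adjusted p of 4.6e-08, and 1.15% of tested features rose more. Within strains it was called higher in 4, where 4.74% (Y7568), 8.87% (NCYC361), 5.47% (YPS128), 4.54% (NCYC3290), 2.48% (UWO.S05.22-7) and 2.41% (K11) of features were called higher: Y7568 (2.85 ± 0.47, adjusted p = 0.000262), NCYC361 (2.63 ± 0.47, adjusted p = 0.000397), YPS128 (2.14 ± 0.47, adjusted p = 0.00438) and NCYC3290 (1.89 ± 0.47, adjusted p = 0.0148). It was 1.33 ± 0.47 in UWO.S05.22-7 (adjusted p = 0.164) and 0.46 ± 0.47 in K11 (adjusted p = 0.844). The difference among strains in the GAL3 toxin response did not pass limma's F test (adjusted p = 0.319, unadjusted p = 0.0162). By that test 0 of the 4 members were called (1 at an unadjusted p under 0.05, and 0 by limma-voom on recovered reads), where 2.38% of features were called. Without the SynH -HTs libraries of replicate 2 the GAL3 change was 1.68 (adjusted p = 5.37e-06), and without those of replicate 1 it was 2.08 (adjusted p = 3.75e-07). With strains as the unit of replication the adjusted p was 0.0302.

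GAL4 separated the media more cleanly, although it moved by less than GAL3 in some strains. Its log2 RPKM ran from -0.69 to 2.78 in SynH -HTs, with a median of 0.53, and from 1.18 to 3.77 in SynH, with a median of 2.52. In NCYC361 the GAL4 libraries read 0.74 and 0.78 without the toxins and 2.71 and 3.13 with them, and in K11 they read 2.74 and 2.78, then 3.68 and 3.77. NCYC3290 rose from 0.05 and -0.11 to 2.18 and 2.43, and the pair of Y7568 values from 1.03 and 0.73 to 2.60 and 2.62. In YPS128 GAL4 went from 0.33 and -0.02 to 1.85 and 2.37, and in UWO.S05.22-7 from 0.19 and -0.69 to 1.55 and 1.18. Every SynH library lay above both SynH -HTs libraries of its own strain, in 6 of 6 strains, which 4.47% of all features also showed.

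The mean GAL4 change was 1.79 ± 0.16 (adjusted p = 3.91e-09), and 1.23% of tested features rose more. The call was made in 5 strains, at 2.34 ± 0.38 in NCYC3290, 2.16 ± 0.38 in NCYC361, 1.96 ± 0.38 in YPS128, 1.73 ± 0.38 in Y7568 and 1.62 ± 0.38 in UWO.S05.22-7 (adjusted p = 0.000318 to 0.0188). K11 had 0.96 ± 0.38 (adjusted p = 0.206), which became 1.16 with an adjusted p of 0.0337 after quantile normalization. No difference among strains in the GAL4 toxin response was called (adjusted p = 1). Without the SynH -HTs libraries of replicate 2 the GAL4 change was 1.66 (adjusted p = 1.31e-06), and without those of replicate 1 it was 1.93 (adjusted p = 1.91e-07).

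**Figure D1:**
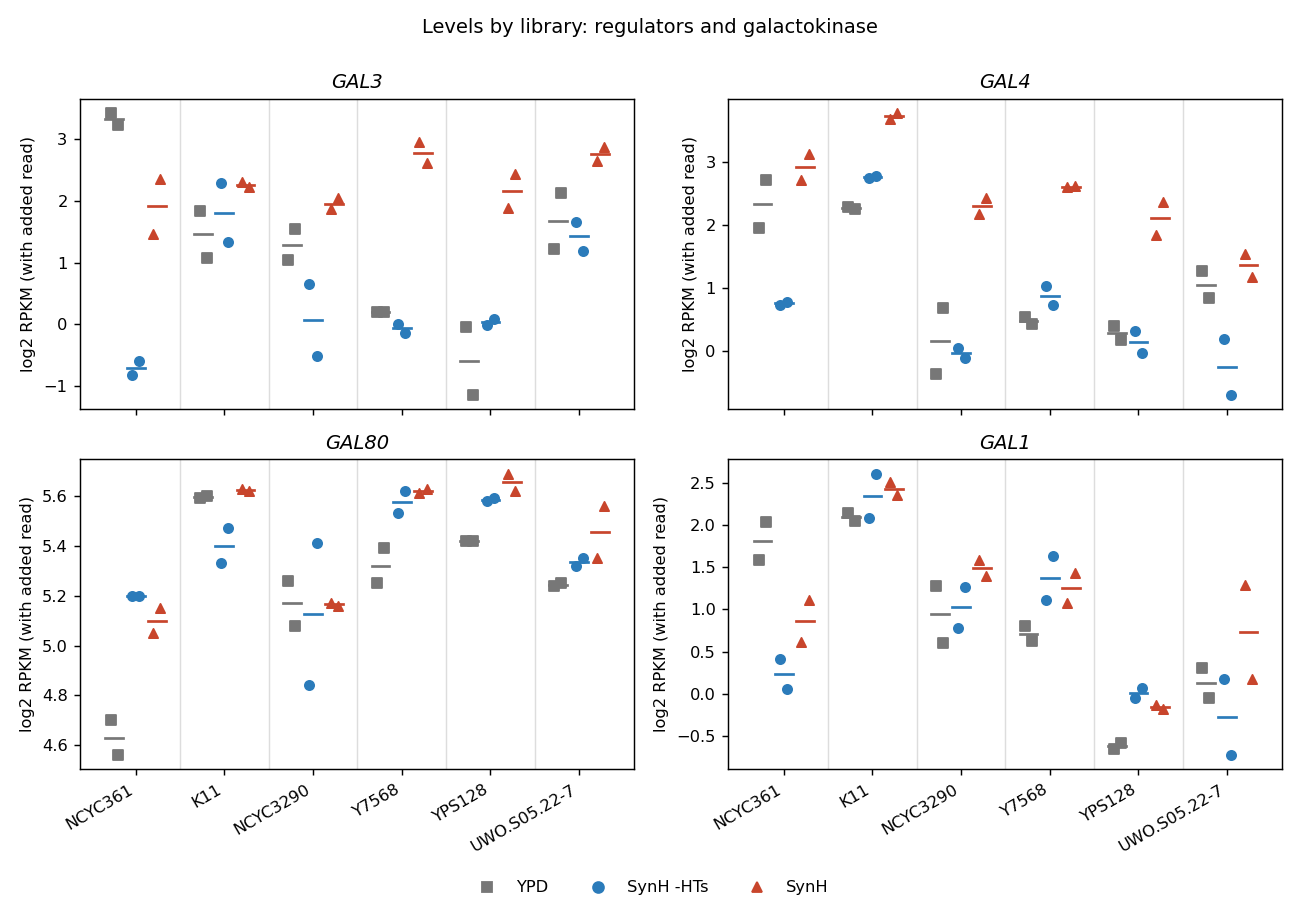
Log2 RPKM of GAL3, GAL4, GAL80 and GAL1 in each of the 36 libraries (points, 2 per strain and medium) with the mean of each pair (bars), by strain on the horizontal axis; the vertical ranges differ between panels. The SynH points of GAL4 lie above the SynH -HTs points in 6 of 6 strains, and GAL80 stays between 4.56 and 5.69.

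GAL80 was the most abundant member per length and changed little with the toxins. Its level lay between 4.56 and 5.69 in all 36 libraries, above GAL4 by a median of 4.17 and above GAL3 by a median of 3.78 on the log2 scale, and above each of them in 36 of 36 libraries. In SynH -HTs it ran from 4.84 to 5.62 with a median of 5.38, and in SynH from 5.05 to 5.69 with a median of 5.58. The toxin response of GAL80 was 0.07 ± 0.07 (adjusted p = 0.49), between -0.10 in NCYC361 and 0.23 in K11.

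The galactokinase transcript GAL1 was the highest of the 4 structural genes per length and yet held only 4 to 62 reads per library. Its log2 RPKM ranged from -0.73 to 2.61 in SynH -HTs, with a median of 0.60, and from -0.18 to 2.51 in SynH, with a median of 1.20, so the media overlapped. The toxin response was 0.32 ± 0.17 (adjusted p = 0.175), from -0.16 in YPS128 to 1.02 in UWO.S05.22-7, with 4 of 6 strains positive and 0 called. In UWO.S05.22-7 the GAL1 libraries read 0.17 and -0.73 without the toxins and 1.29 and 0.18 with them, ranges that do not overlap but lie next to each other.

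The other enzymes and the permease were near the limit of detection. GAL10 had 32 reads over the 12 SynH -HTs libraries and 59 over the 12 SynH libraries, and GAL7 had 18 and 41. These sums are not scaled to depth, and the deepest library, YPS128 in SynH, held 14 of the GAL10 and 18 of the GAL7 reads. With the added read removed, mean RPKM in SynH -HTs and SynH was 0.337 and 0.396 for GAL10, and 0.341 and 0.371 for GAL7. GAL2 had 0 reads in all 12 SynH -HTs libraries, which allows up to 3 reads over that medium, against 9 reads over the 12 SynH libraries and 23 over the 12 YPD libraries. Read floors and intervals cover counting error only. GAL1 exceeded both GAL10 and GAL7 in 36 of 36 libraries, by medians of 2.44 and 1.94 log2 units per length, although GAL1 and GAL10 share the 3 Gal4 matches printed above. These differences contain the added read and the same-strand RNA at GAL1, whose part was not tested.

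Without the filter on low values the toxin responses of GAL2, GAL7 and GAL10 were 0.35 ± 0.40, 0.14 ± 0.29 and 0.46 ± 0.28 (adjusted p = 0.632, 0.774 and 0.272). Since 22 GAL2 libraries, 10 GAL7 libraries and 6 GAL10 libraries held 0 reads, these fitted values rest in part on the added read and no fold is given. On the same terms the base medium changes were -1.08 ± 0.40 for GAL2 (adjusted p = 0.0337), -0.72 ± 0.29 for GAL7 (adjusted p = 0.0517) and 0.15 ± 0.28 for GAL10 (adjusted p = 0.737), with GAL2 at 0 reads in all 12 libraries of SynH -HTs. The fitted toxin changes of all 3 genes were positive in some strains and negative in others. For GAL2 the negative values were -0.34 in NCYC3290, with 0 reads in both media, and -0.62 in YPS128. The YPS128 libraries held 0 reads without the toxins and 3 with them, so neither negative value is a fall in reads. In NCYC361 the unfiltered fit called GAL7 higher with the toxins (2.29 ± 0.71, adjusted p = 0.0423), where K11 and Y7568 had -1.44 ± 0.71 and -1.40 ± 0.71 without a call. It also called GAL7 (-3.53 ± 0.71, adjusted p = 0.000288) and GAL10 (-1.85 ± 0.69, adjusted p = 0.0307) lower in the base medium in NCYC361. By the F test GAL7 differed among strains in the base medium response (adjusted p = 0.015) and did not pass in the toxin response (adjusted p = 0.119). In NCYC361 these fits rest on 1 and 0 reads of each gene in SynH -HTs. Shares of features called are given here for the filtered fit alone, where 8.87% were called higher with the toxins in NCYC361. In the base medium 45.2% were called over the 6 strains, 53.3% within NCYC361 and 29.6% by the F test.

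**Figure D2:**
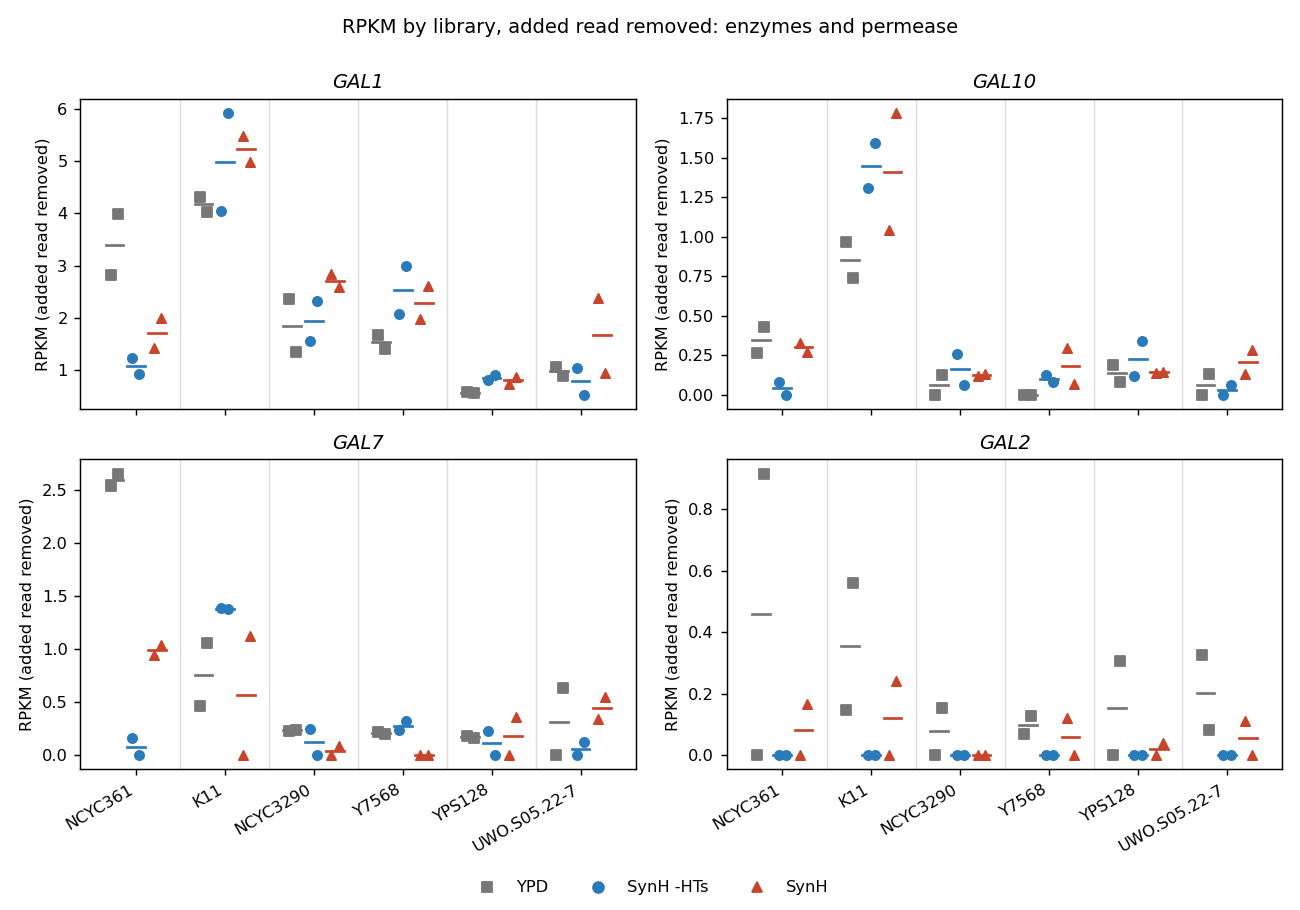
RPKM with the added read removed for GAL1, GAL10, GAL7 and GAL2 in each library (points, 2 per strain and medium; bars are means of the pair), on linear axes that differ between panels. GAL10 is highest in K11 in each medium, GAL7 is highest in NCYC361 in YPD, and GAL2 lies at 0 in all 12 SynH -HTs libraries.

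The base medium response, SynH -HTs minus YPD, went the other way for GAL3 and GAL4 on average, and much of it came from 1 strain. GAL3 was 1.74-fold lower in SynH -HTs than in YPD (-0.80 ± 0.19, adjusted p = 0.002) and GAL4 1.31-fold lower (-0.39 ± 0.16, adjusted p = 0.0466), so 2 of 4 tested members were called, where 45.2% of all features were called and 38.4% were called lower. The median of all features was itself -0.31, and after scaling every library to a common median GAL3 was at -0.42 (adjusted p = 0.0551) and GAL4 at -0.02 (adjusted p = 0.939). Without NCYC361 the GAL3 change was -0.15 (adjusted p = 0.63) and the GAL4 change -0.15 (adjusted p = 0.542). With strains as the unit the adjusted p was 0.252 for GAL3 and 0.335 for GAL4. Without the SynH -HTs libraries of replicate 2 the base medium change of GAL3 was -0.60 (adjusted p = 0.0475) and that of GAL4 -0.26 (adjusted p = 0.354), and without those of replicate 1 they were -1.0 (adjusted p = 0.000523) and -0.52 (adjusted p = 0.0224). The mean GAL80 change was 0.14 ± 0.07 (adjusted p = 0.0829), but GAL80 was called higher after median scaling (0.51, adjusted p = 0.00794) and quantile normalization (0.40, adjusted p = 0.00531). It also passed without NCYC3290 SynH -HTs replicate 1 (0.19, adjusted p = 0.0135) and without all 6 SynH -HTs libraries of replicate 1 (0.21, adjusted p = 0.0102). GAL80 passed as well in 2 of the 6 limma fits that left out 1 strain (lowest adjusted p = 0.0316). The GAL1 change was -0.06 ± 0.17 (adjusted p = 0.792).

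In YPD, GAL3 stood higher in NCYC361 than elsewhere. Its YPD libraries read 3.42 and 3.23, with 59 and 64 reads, while the SynH -HTs libraries of that strain read -0.83 and -0.60, with 4 reads each. The YPD values of the other strains were 1.84 and 1.07 in K11, 1.04 and 1.54 in NCYC3290, 0.20 and 0.19 in Y7568, -0.05 and -1.15 in YPS128, and 1.22 and 2.13 in UWO.S05.22-7. No other GAL3 library in YPD reached the NCYC361 pair. These levels are not scaled to the library medians, which were 4.81 and 4.83 in that pair and 3.95 and 3.94 in UWO.S05.22-7 in YPD. Relative to those medians the gap to UWO.S05.22-7 is smaller. Within NCYC361 the base medium response of GAL3 was -4.04 ± 0.47 (16.4-fold lower, adjusted p = 2.36e-07), and it was -2.95 (adjusted p = 5.86e-06) after median scaling. In the other strains it ranged from -1.22 in NCYC3290 to 0.63 in YPS128 with no call, where 11.8% (K11), 4.42% (NCYC3290), 4.76% (Y7568), 5.43% (YPS128) and 10.6% (UWO.S05.22-7) of features were called.

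The GAL3 base medium response differed among strains by limma's F test (adjusted p = 5.58e-05), a test that 29.6% of all features passed. GAL4 (adjusted p = 0.0126) and GAL1 (adjusted p = 0.0308) passed it too, but not after median scaling (adjusted p = 0.311 and 0.567) and not without the SynH -HTs libraries of replicate 2 (0.0989 and 0.306), and GAL80 did not (adjusted p = 0.122, but 0.00371 after quantile normalization). Leaving out NCYC361 YPD replicate 2 moved GAL4 to an adjusted p of 0.0533 and GAL1 to 0.169. GAL1 also missed the threshold without NCYC361 YPD replicate 1 (0.0508), without NCYC361 SynH -HTs replicate 1 (0.0553) or 2 (0.151), and without replicate 2 of Y7568 in YPD (0.0532) or SynH -HTs (0.0532). GAL80 passed without NCYC3290 SynH -HTs replicate 2 (0.0207).

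NCYC361 was the strain in which all 4 tested members were called in the base medium response, where 53.3% of all features were called and the median feature changed by -0.89. GAL4 fell by 1.58 (its YPD libraries read 1.96 and 2.71) and GAL1 fell by 1.57 (YPD 1.58 and 2.04, SynH -HTs 0.41 and 0.06). GAL80 rose by 0.56 ± 0.16 (adjusted p = 0.00538), from 4.70 and 4.56 to 5.20 and 5.20. After median scaling GAL80 in NCYC361 stood at 1.65 (adjusted p = 0.000685), while GAL4 was at -0.50 (adjusted p = 0.261) and GAL1 at -0.49 (adjusted p = 0.452). The NCYC361 YPD libraries had medians over all tested features of 4.81 and 4.83, above the 3.73 to 4.29 of the other YPD libraries, and the part of this in the members' values was not tested. Elsewhere 1 call was made, GAL4 in UWO.S05.22-7 (-1.31 ± 0.38, adjusted p = 0.0295), from 1.28 and 0.84 to 0.19 and -0.69, in a strain whose median feature changed by -0.55. After median scaling and after quantile normalization that call was not made.

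Reads of the permease and of GAL7 were also unevenly spread over YPD. GAL7 reached 1.48 and 1.52 in the NCYC361 YPD libraries, with 10 and 13 reads, against 1 and 0 reads in SynH -HTs of that strain and 6 and 4 in SynH. No other YPD library of GAL7 exceeded 0.30. The 23 GAL2 reads in YPD included 7 in 1 NCYC361 library, whose partner held 0.

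**Figure D3:**
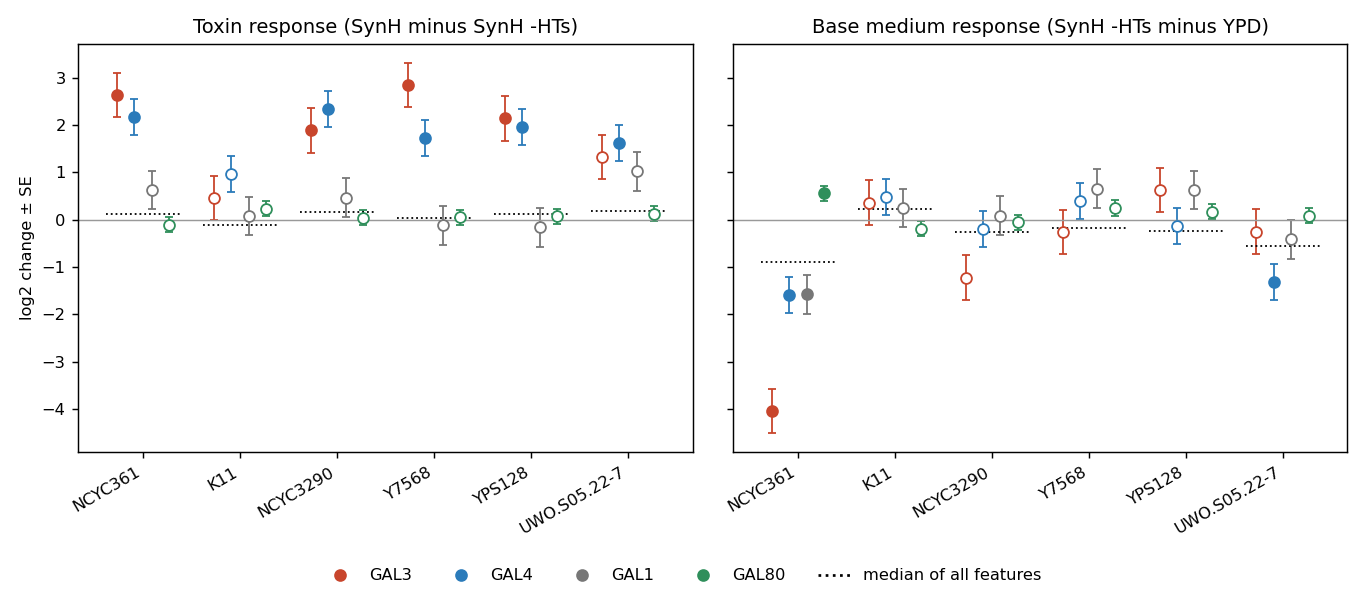
Log2 changes (points) with standard errors (bars) of GAL3, GAL4, GAL1 and GAL80 in each strain, for the toxin response on the left and the base medium response on the right; filled points passed an adjusted p of 0.05 within the strain and dotted lines give the median change of all tested features. GAL3 and GAL4 are positive in 6 of 6 strains on the left, and GAL3 in NCYC361 reaches -4.04 on the right.

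The complete hydrolysate response, SynH minus YPD, uses the same libraries as the other 2 responses and is given beside them. GAL4 was 2.65-fold higher (1.41 ± 0.16, adjusted p = 1.02e-07), GAL3 2.12-fold higher (1.08 ± 0.19, adjusted p = 6.13e-05) and GAL80 1.16-fold higher (0.21 ± 0.07, adjusted p = 0.0107), while GAL1 did not pass (0.26 ± 0.17, adjusted p = 0.21). Thus 3 of 4 members were called, where 48.7% of all features were called and 14.4% were called higher. With strains as the unit GAL3 and GAL80 did not pass (adjusted p = 0.116 and 0.131). Without NCYC361 the GAL80 change was 0.16 (adjusted p = 0.0935), and GAL1 was called higher (0.5, adjusted p = 0.0371). Without the 6 libraries of 1 number in YPD or in SynH, GAL80 had adjusted p of 0.0714 to 0.123.

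Strains differed in this response for GAL3 (F test adjusted p = 0.000283) and for GAL4 (adjusted p = 0.0308), as did 26.1% of all features. GAL3 was 6.82-fold higher in YPS128 (2.77 ± 0.47) and 6.01-fold higher in Y7568 (2.59 ± 0.47), and 2.66-fold lower in NCYC361 (-1.41 ± 0.47, adjusted p = 0.0198). The NCYC361 value became -0.52 (adjusted p = 0.366) after median scaling, which also called GAL3 in UWO.S05.22-7 (1.52, adjusted p = 0.0182, against 1.08 and 0.132). GAL80 was called higher in NCYC361 (0.47 ± 0.16, adjusted p = 0.0226). GAL4 rose in this comparison in K11, NCYC3290, Y7568 and YPS128, by 1.46 to 2.14, and was at 0.58 in NCYC361 and 0.30 in UWO.S05.22-7 without a call. After median scaling GAL4 in NCYC361 was at 1.47 (adjusted p = 0.00215). The shares of features called in this response were 43.5% in NCYC361, 22% in K11, 12.4% in NCYC3290, 12.6% in Y7568, 14% in YPS128 and 14.1% in UWO.S05.22-7.

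Mean levels over the 3 media differed among strains for all 4 tested members (adjusted p = 1.9e-08 for GAL4, 5.26e-08 for GAL1, 1.6e-05 for GAL80 and 0.000413 for GAL3), as for 68.8% of all features. K11 had the highest GAL1 and GAL10 in each medium. In SynH, GAL1 was ordered K11 (2.43), NCYC3290 (1.49), Y7568 (1.25), NCYC361 (0.86), UWO.S05.22-7 (0.74) and YPS128 (-0.16), where K11 stood clear of NCYC3290, YPS128 stood clear of UWO.S05.22-7, and the neighbours between them overlapped. In SynH -HTs the GAL1 order was K11 (2.34), Y7568 (1.37), NCYC3290 (1.02), NCYC361 (0.24), YPS128 (0.01) and UWO.S05.22-7 (-0.28), with K11 clear of Y7568 and NCYC3290 clear of NCYC361. In YPD it was K11 (2.09), NCYC361 (1.81), NCYC3290 (0.94), Y7568 (0.71), UWO.S05.22-7 (0.13) and YPS128 (-0.62), where the single pair of neighbours that overlapped was NCYC3290 and Y7568. Relative to the median feature of each library, GAL1 in K11 lay between -2.65 and -1.69 over the 3 media. Y7568 reached -1.86 and UWO.S05.22-7 reached -1.98, so the K11 range then overlapped with theirs.

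GAL10 showed the same strain on top, at 0.66 in SynH -HTs, 0.57 in SynH and -0.12 in YPD in K11. The next strain stood at -1.59, -1.28 and -1.12, and its range did not overlap with that of K11. K11 held 7 to 18 GAL10 reads per library. In the other strains the highest count was 14, in the deepest library, and the rest held 0 to 4. Relative to the median feature of each library, GAL10 in K11 lay between -4.48 and -3.51, while the other strains reached up to -4.36, so the K11 range then overlapped with that of YPS128.

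GAL4 in SynH was ordered K11 (3.72), NCYC361 (2.92), Y7568 (2.61), NCYC3290 (2.31), YPS128 (2.11) and UWO.S05.22-7 (1.36), and of these neighbours NCYC3290 and YPS128 alone overlapped. In SynH -HTs K11 (2.76) stood clear of the other strains, which lay between -0.25 and 0.88. In YPD the top was shared by NCYC361 (2.34) and K11 (2.27), which overlapped, and both stood clear of UWO.S05.22-7 (1.06). The NCYC361 YPD libraries had medians over all tested features of 4.81 and 4.83, against 3.95 and 3.94 in UWO.S05.22-7. This order was not scaled to those medians, and relative to them the YPD libraries of NCYC361 and UWO.S05.22-7 overlapped. GAL3 in SynH spanned less, from 1.92 in NCYC361 to 2.78 in Y7568, and UWO.S05.22-7 (2.76) and K11 (2.26) were the only neighbours that did not overlap. GAL3 in SynH -HTs was highest in K11 (1.81) and UWO.S05.22-7 (1.42), which overlapped, and lowest in NCYC361 (-0.72).

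In log2 RPKM, GAL80 kept within narrow bounds in each medium. Relative to the median feature of each library it lay between -0.26, in NCYC361, and 2.59, in UWO.S05.22-7, so it was less constant on that scale. In SynH the order was YPS128 (5.66), K11 (5.62), Y7568 (5.62), UWO.S05.22-7 (5.46), NCYC3290 (5.16) and NCYC361 (5.10), and the first 3 strains overlapped. In YPD NCYC361 (4.63) was the lowest and stood clear of NCYC3290 (5.17).

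Between resistance classes in SynH no member was called (0 of 4, with 1 at an unadjusted p under 0.05), and no feature at all (0 of 5927, a share of 0%, with 822 at an unadjusted p under 0.05) by limma with the strain as the replicate. GAL4 averaged 2.03 in the 3 resistant strains and 3.32 in the 2 sensitive strains, a difference of -1.29 ± 0.48 with an adjusted p of 0.345. The strain means of the classes did not overlap for GAL4, nor for GAL2, GAL7 and GAL10, which were not tested. For GAL2 the classes came as close as -2.56 and -2.45, and for GAL7 as close as -0.75 and -0.71. Of all 12 SynH libraries, 7 held 0 reads of GAL2 and 5 held 0 of GAL7, so their values rest in part on the added read. The share of all features with such a gap was not counted, so no weight rests on it. The median of all features was -0.36 in this comparison. GAL1 averaged 0.61 against 1.65 (adjusted p = 0.45), GAL3 2.57 against 2.09 (adjusted p = 0.507) and GAL80 5.58 against 5.36 (adjusted p = 0.653), and the resistant and sensitive strains overlapped for these 3 genes.

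Genes outside the pathway taken here as Gal4 targets were listed for comparison, and binding by Gal4 was not measured. Of 5 such genes, 3 rose and 1 fell in the toxin response, with a median of 1.55 against 0.09 for all features. Of all features 29.6% were called in that response and 19.1% were called higher. The 3 listed genes that rose were PGM2, a phosphoglucomutase (1.81 ± 0.17, adjusted p = 1.78e-08), GCY1, a glycerol dehydrogenase (1.69 ± 0.18, adjusted p = 8.81e-08), and MTH1, a regulator of glucose transporter genes (1.55 ± 0.26, adjusted p = 6.75e-05). Each was positive in 6 of 6 strains. FUR4, the uracil permease gene beside GAL1, fell by 0.70 (adjusted p = 0.00018), and PCL10, a cyclin gene, was at 0.00 ± 0.16. GCY1, MTH1 and PCL10 each carry 1 Gal4 match in the window searched, and PGM2 and FUR4 carry 0.
GCY1, chrXV:550745-550761, + strand: aatCGGggcagactattCCGggg
MTH1, chrIV:1016155-1016171, - strand: gtcCGGggaaatggagtCCGtgc
PCL10, chrVII:255431-255447, + strand: gctCGGagtatattgcaCCGatc
In the base medium 1 of the 5 rose, FUR4 (0.42 ± 0.13), and 3 fell, PGM2 (-1.42 ± 0.17, though positive in 3 of 6 strains), PCL10 (-0.69 ± 0.16) and GCY1 (-0.53 ± 0.18), with a median of -0.53 against -0.31 for all features. There 45.2% of all features were called and 38.4% were called lower. After median scaling GCY1 was at -0.16 (adjusted p = 0.411), and the directions of the other 3 held.

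Around the pathway itself, PGM2, PGM1 and UGP1 link galactose to glycolysis and to UDP-sugars. In the toxin response PGM2 and UGP1, the UDP-glucose pyrophosphorylase gene (0.33 ± 0.07, adjusted p = 0.00101), rose and PGM1, the minor phosphoglucomutase gene (-0.17 ± 0.06, adjusted p = 0.0369), fell. After median scaling UGP1 was at 0.20 (adjusted p = 0.239). In the base medium PGM1 (-0.32 ± 0.06) and PGM2 fell and UGP1 did not pass (0.17 ± 0.07, adjusted p = 0.0626), while after median scaling PGM1 was at 0.05 and UGP1 rose (0.54, adjusted p = 0.00181). The neighbours of the GAL cluster on chromosome II are KAP104, an importin gene beside GAL7, and FUR4. KAP104 did not pass in the toxin response (-0.25 ± 0.11, adjusted p = 0.0875) or in the base medium (-0.13 ± 0.11, adjusted p = 0.338), but after median scaling it fell in the first (-0.38, adjusted p = 1.58e-05) and rose in the second (0.25, adjusted p = 0.00171).

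Glucose represses many other genes, and 8 of them were listed, of which 6 reached the level required for testing. In the toxin response 4 of 6 rose and 0 fell, with a median of 1.15, where 19.1% of all features rose and their median was 0.09: HXK1, a hexokinase (4.09 ± 0.24), JEN1, a lactate permease (1.85 ± 0.23), SUC2, invertase (1.26 ± 0.08), and PCK1, a gluconeogenic enzyme (1.04 ± 0.33, adjusted p = 0.0192). After median scaling PCK1 was at 0.91 (adjusted p = 0.0714) and 3 of 6 rose. In the base medium 6 of 6 fell, with a median of -1.12, where 38.4% of all features fell and their median was -0.31, among them PCK1 (-2.48 ± 0.33), HXK1 (-1.74 ± 0.24), SUC2 (-1.62 ± 0.08) and ICL1, isocitrate lyase (-0.54 ± 0.17). After median scaling 3 of 6 fell, PCK1, HXK1 and SUC2.

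Of 15 genes of the glucose repression machinery (the Snf1 kinase complex, its phosphatase, the Mig and Nrg repressors and their corepressors), 2 rose and 1 fell in the toxin response, with a median of 0.17, where 29.6% of all features were called and their median was 0.09. MIG3, a repressor related to Mig1, fell by 2.22 (adjusted p = 1.06e-10) in 6 of 6 strains. MIG2, another relative, rose (0.60 ± 0.14, adjusted p = 0.00128), and HXK2, the main glucose-phase hexokinase (0.19 ± 0.06, adjusted p = 0.0118), moved to 0.06 (adjusted p = 0.777) after median scaling. SIP2 had 0.34 ± 0.18 (adjusted p = 0.168), and MIG1, named after its value was seen, 0.28 ± 0.21 (adjusted p = 0.369). After median scaling 1 of the 15 rose and 3 fell. In the base medium 3 rose and 6 fell, with a median of -0.19, where 45.2% of all features were called and their median was -0.31: MIG3 rose (1.95 ± 0.16), while MIG1 (-1.60 ± 0.21), the repressor NRG2 (-1.51 ± 0.27) and the Snf1 complex subunit SIP2 (-0.85 ± 0.18) fell. The counts were 6 higher and 4 lower after median scaling, with the directions of these 4 genes kept.

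**Figure D4:**
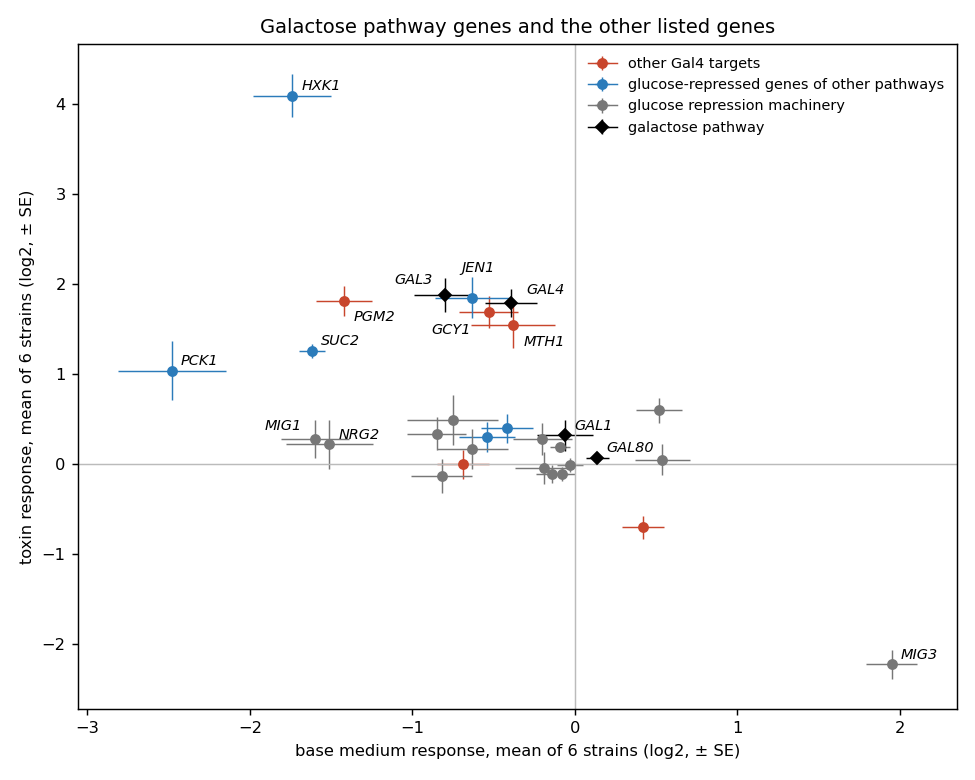
Toxin response (vertical) against base medium response (horizontal), both the mean log2 change over 6 strains with standard errors, for the 4 tested galactose pathway genes and 3 of the lists. The responses share the SynH -HTs libraries with opposite sign, so the slope of the cloud is no result; GAL3 and GAL4 stand at 1.88 and 1.79 on the vertical axis beside PGM2, GCY1 and MTH1, and GAL1 and GAL80 stand near 0.

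The members did not move as a block. Over the 18 means of strain and medium, Pearson's r was 0.68 between GAL3 and GAL4, 0.68 between GAL1 and GAL4, 0.72 between GAL1 and GAL10 and 0.74 between GAL4 and GAL10, but -0.38 to 0.17 between GAL80 and the other members. These points share libraries, depth and strain background, and they describe the 18 means and nothing beyond them. The features most like GAL4 were YLR152C (r = 0.942), YML089C (0.926) and SPI1 (0.917), and those most like GAL3 were TMH11 (0.86), EMI2 (0.841) and YIL067C (0.839). GAL1 was most like SWD1 (0.949), LCD1 (0.908) and MEP2 (0.906), and GAL80 like YKL033W-A (0.823), ARO4 (0.805) and TOM5 (0.791). GAL10 was most like YCR095W-A (0.91), PAU15 (0.902) and FAA2 (0.901), GAL7 like ICS2 (0.86), SET4 (0.858) and YGR190C (0.853), and GAL2 like IDP3 (0.869), YCR025C (0.868) and ARG80 (0.866). No tested member was among the 3 features most like another. GAL2, GAL7 and GAL10 could not be, since candidates needed a mean of at least 1 RPKM.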

How the data were processed

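Per the submitters' processing notes, reads were handled with Trimmomatic 0.30, Bowtie2 and HTSeq 0.6.0; sources used here do not give the build or the strand setting. The authors deposited log2 RPKM values, and from the values 1 read was added before the logarithm. Whole reads (within 0.05 reads) were recovered for 99.85% of values in the 6013 rows matched to R64 coding lengths. Libraries held 2203991 to 32832552 reads in coding genes, which leaves members with few reads imprecise. Comparisons used limma 3.58.1 in R 4.3.3 on the log2 values, with an intensity-dependent prior, 18 group means and Benjamini-Hochberg adjustment (threshold 0.05) over the 5927 features whose mean reached 1 RPKM, and were tested on simulated data. A log2 change includes the added read, which can shrink the change of a gene with few reads. Where libraries differ in depth, the added read can also make a change or turn its sign. The members and lists were chosen with earlier results of these data known. All 7 members are named, up to 4 genes per list by smallest adjusted p, and the 3 features most like each member. MIG1 in the toxin response, CPP2 and YJL077W-A were named after their values were seen. The libraries of NCYC361 titled SynHv were taken as SynH from their medium label. Alternatives were other scalings, filters, priors and units, voom on recovered reads, and left-out libraries and strains.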

Additional observations from a re-analysis of the deposited data

Results flagged for a closer look

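The base medium response (SynH -HTs minus YPD) differed among the 6 strains by limma's F test for GAL3 (adjusted p = 5.58e-05), GAL4 (adjusted p = 0.0126) and GAL1 (adjusted p = 0.0308). GAL3 ranged from -4.04 in NCYC361 to 0.63 in YPS128, GAL4 from -1.58 in NCYC361 to 0.49 in K11, and GAL1 from -1.57 in NCYC361 to 0.66 in Y7568. The complete hydrolysate response (SynH minus YPD) differed for GAL3 (adjusted p = 0.000283), from -1.41 in NCYC361 to 2.77 in YPS128, and for GAL4 (adjusted p = 0.0308), from 0.30 in UWO.S05.22-7 to 2.14 in NCYC3290. Both comparisons share the YPD libraries.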

How the results depend on the processing

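The toxin count of 2 members, GAL3 and GAL4, held under every alternative run except a filter at a mean of 10 RPKM, which leaves GAL80 alone to test and gave 0. That filter also gave 0 members in the base medium, 1 in the complete hydrolysate, 0 for base medium differences among strains, 1 for levels, and 0 toxin and 1 base medium calls within strains. The base medium count of 2 was the least stable. It was 1 with the replicate block, with median scaling and quantile normalization (GAL80, higher), with log2(RPKM + 1), without the 6 YPD libraries of number 1 or of number 2, without the 6 SynH -HTs libraries of number 2, without the 6 SynH libraries of either number, and without YPS128 or UWO.S05.22-7. It was 0 with strains as the unit and without NCYC361, and 1 to 2 with single libraries left out, since GAL4 lost its call in 26 of 36 of these. With 1 strain left out the base medium count ran from 0 to 3. Under quantile normalization the GAL4 base medium change turned to 0.01 (adjusted p = 0.949). The complete hydrolysate count of 3 was 1 with strains as the unit, 2 without the YPD or the SynH libraries of either number and without Y7568, and 4 with median scaling, which called GAL1. Without NCYC361 it stayed at 3, with GAL1 called and GAL80 not. The 3 members whose base medium response differed among strains became 1 with median scaling, without the YPD libraries of either number and without the SynH -HTs libraries of number 2, and 1 to 4 with single libraries left out. The 5 base medium calls within strains became 2 with median scaling or quantile normalization and 1 without the YPD libraries of number 2, and the 9 toxin calls within strains became 3 without the SynH libraries of number 2. The causes were not tested. Replicate numbers did not pair the samples across media: deviations of same-numbered libraries correlated at -0.45 to 0.28 between media of 1 strain. Within SynH -HTs the number did mark deviations that strains shared, with correlations of 0.43 to 0.72 over 15 pairs of strains, against -0.08 to 0.63 in SynH and -0.18 to 0.27 in YPD. A replicate block within each medium gave 2 toxin, 3 base medium and 3 complete hydrolysate calls among members, with GAL80 added in the base medium (0.14, adjusted p = 0.0263) and in its differences among strains (adjusted p = 0.0175). Under that block the features called rose from 1757 to 2907 in the toxin response, from 2678 to 3993 in the base medium and from 1752 to 4018 for base medium differences among strains, of 5927, so the shares of all features given as background are without the block and larger with it. The class comparison was not run with a block or with voom, and the differences among strains were not run with a strain left out. Low read counts limit the precision of GAL2, GAL7 and GAL10.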
